A study of Mus musculus with 12 samples.

Results

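The genes described here are 10 markers of liver endothelial cells, Pecam1, Cdh5, Stab1, Stab2, Lyve1, Kdr, Clec4g, Fcgr2b, Tek and Eng. They were chosen by name, and a gene was measured by a transcript cluster (the group of probes that the array assigns to one gene) that carried exactly 1 gene symbol. All 10 had such a cluster, out of 19938 genes that did. Clec4g had 2 clusters, and the brighter one was used throughout. The other Clec4g cluster was dim, with log2 signals from 3.42 to 3.80 over the arrays.

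Expression was measured on 12 Affymetrix arrays that the authors summarised as log2 signals, so that a difference of 1 is a doubling. KK-Ay mice carry the A-y allele of the agouti gene on the KK background and develop obesity and type 2 diabetes, while KK mice lack the allele. The array titles gave 6 groups of 2 arrays each, namely 1, 6K, 6Y, 16Y, 42WKK and 42Y. The series text lists 6Y, 16Y and 42Y as diabetic mice and 1, 6K and 42WKK as controls, whereas the individual records call 6K diabetic and 42Y control. Groups were therefore taken from the titles alone. The study's own group names make 42Y KK-Ay and 42WKK KK mice of 42 weeks. No source used here gives a unit for the numbers 1, 6 and 16, the strain of group 1, or any treatment. The methods describe KK mice from a commercial supplier on laboratory chow, and nothing in the sources ties each array to its own animal. The p-values therefore measure only the spread between these samples, which may be technical.

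Signal of the agouti gene lay between 6.78 and 7.06 in the 6 arrays with Y in the title and between 5.20 and 5.51 in the other 6, with 5.20 to 5.29 in 6K. The 6K arrays thus had the low agouti signal of the other arrays without Y. The methods name liver and the records name blood as the tissue. Hepatocyte genes had array medians from 13.11 to 13.38, against 3.87 to 4.52 for B cell genes and 3.79 to 4.35 for T cell genes. Array medians over all clusters ranged from 4.74 to 4.88, and replicate arrays correlated at 0.983 to 0.991.

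Liver sinusoids are lined by specialised endothelial cells that have open pores and little basement membrane. These cells clear waste from the blood through scavenger and Fc receptors, exchange signals with hepatocytes and stellate cells, and lose part of this identity when they turn into the continuous endothelium of ordinary capillaries. Among the 10 genes, Pecam1 and Cdh5 (VE-cadherin) encode junction proteins of all endothelium. Kdr, Tek and Eng encode receptors for vascular growth factors. Stab1, Stab2, Lyve1, Clec4g and Fcgr2b encode the scavenger, hyaluronan, lectin and Fc receptors typical of the sinusoid.

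Group 1 had the lowest mean for 10 of 10 genes, and groups 1 and 16Y were the lowest pair for 8 of 10. The exceptions were Stab1, where 42WKK came second from the bottom, and Stab2, where 42Y did. Group 6Y had the highest mean for 9 genes, and 6K for Eng. A single array, 6Y replicate 2, was the highest of the 12 for all 10 genes, and group 1 replicate 5 was the lowest for 9. How often these ranks occur over all clusters was not counted, so they are not shown to be particular to the markers. In a bulk sample, fewer endothelial cells and less of these RNAs per cell cannot be told apart.

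**Figure D1:**
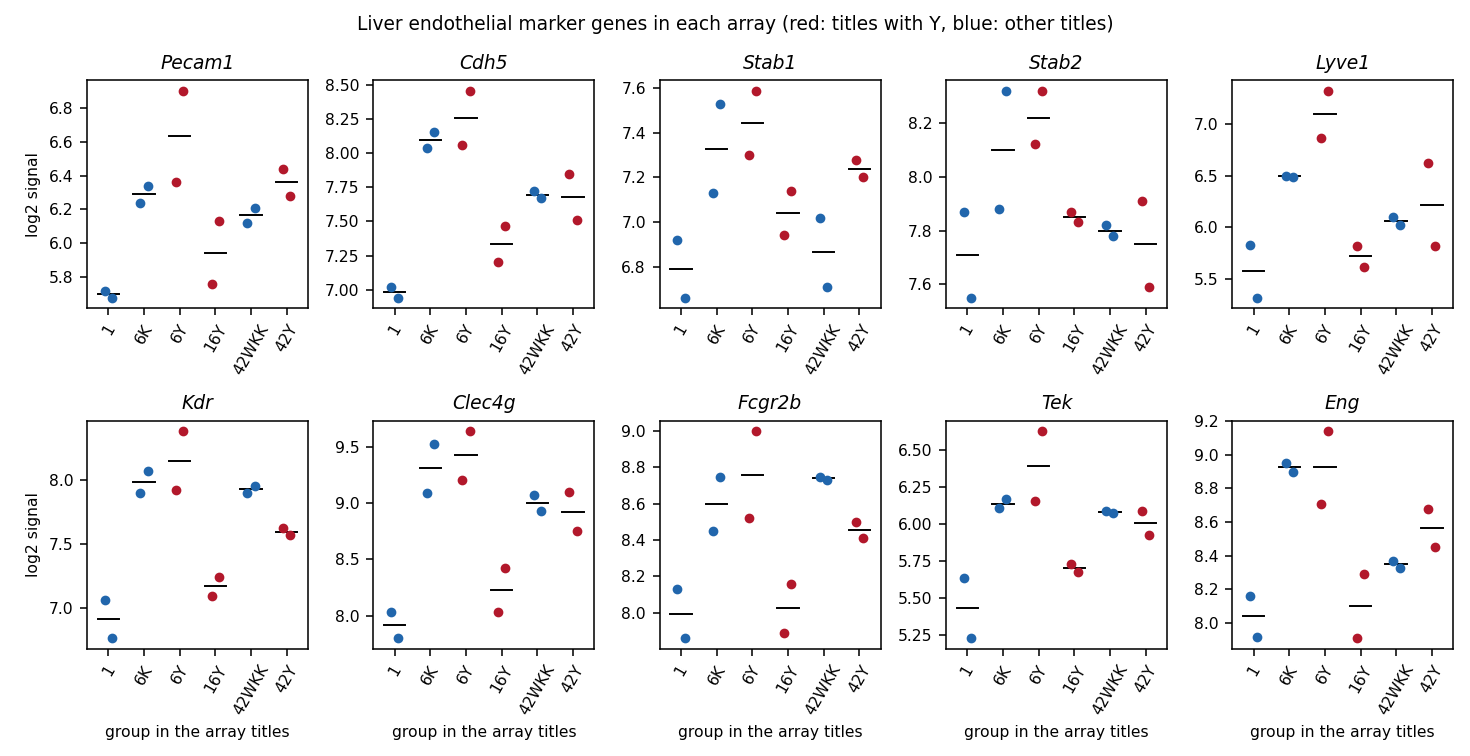
Log2 signal (vertical axes, each with its own range) of the 10 endothelial markers in each array (points) of the 6 title groups (horizontal axes), with the group mean as a bar, red for titles with Y and blue for the others. The arrays of 1 and 16Y lie low and those of 6K and 6Y high. Every array of the first pair lies below every array of the second for 9 of 10 genes, all but Stab1. The share of all clusters with this order was not counted.

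Kdr, the main receptor for vascular endothelial growth factor, had log2 signals of 7.06 and 6.76 in group 1 and of 7.09 and 7.24 in 16Y. It measured 7.90 and 8.07 in 6K, 7.92 and 8.38 in 6Y, 7.90 and 7.95 in 42WKK, and 7.62 and 7.57 in 42Y. The order of means was thus 1, 16Y, 42Y, 42WKK, 6K and 6Y, and the arrays of neighbouring groups did not overlap over the first 3 steps but did above them. Its 42Y arrays lay above those of 1 and 16Y and below those of 42WKK, 6K and 6Y.

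Clec4g, a lectin receptor of the sinusoid, had signals of 8.03 and 7.80 in group 1 and of 8.03 and 8.42 in 16Y, which overlapped. Its arrays reached 9.09 and 9.53 in 6K, 9.21 and 9.64 in 6Y, 9.07 and 8.93 in 42WKK, and 9.10 and 8.75 in 42Y. All 4 arrays of 1 and 16Y lay below all 8 others. How many of all clusters split this way was not counted, for this gene or those below. Cdh5, the adhesion molecule of endothelial junctions, showed the same split, with 7.02 and 6.94 in group 1 and 7.20 and 7.47 in 16Y. Its other arrays were at 8.04 and 8.16 in 6K, 8.06 and 8.46 in 6Y, 7.72 and 7.67 in 42WKK, and 7.85 and 7.51 in 42Y. The 4 groups above 16Y were less well separated, since 42Y overlapped 42WKK and 6Y overlapped 6K.

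Lyve1, a hyaluronan receptor shared with lymphatic vessels, spanned the widest range of the 10. It measured 5.83 and 5.32 in group 1, 5.82 and 5.62 in 16Y, 6.50 and 6.49 in 6K, and 6.86 and 7.32 in 6Y. In 42WKK it was at 6.10 and 6.02, and in 42Y at 6.62 and 5.82. The 42Y arrays were thus as far apart as whole groups, and lay on both sides of 42WKK.

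Eng, a co-receptor for bone morphogenetic proteins, had 8.16 and 7.92 in group 1, 7.91 and 8.29 in 16Y, 8.95 and 8.90 in 6K, 8.71 and 9.14 in 6Y, 8.37 and 8.33 in 42WKK, and 8.68 and 8.45 in 42Y. Tek, the angiopoietin receptor, had 5.64 and 5.23 in group 1, 5.73 and 5.68 in 16Y, 6.11 and 6.17 in 6K, 6.16 and 6.63 in 6Y, 6.09 and 6.08 in 42WKK, and 6.09 and 5.93 in 42Y. Both genes had all arrays of 1 and 16Y below all others. Fcgr2b, an inhibitory Fc receptor that takes up immune complexes, had 8.13 and 7.86 in group 1, 7.89 and 8.16 in 16Y, 8.45 and 8.75 in 6K, 8.52 in 6Y replicate 1 with a higher signal in replicate 2, 8.75 and 8.73 in 42WKK, and 8.50 and 8.41 in 42Y. It too split into 4 low and 8 high arrays. Pecam1, an adhesion molecule of endothelial junctions and platelets, had 5.72 and 5.68 in group 1, 5.76 and 6.13 in 16Y, 6.24 and 6.34 in 6K, 6.36 and 6.90 in 6Y, 6.12 and 6.21 in 42WKK, and 6.44 and 6.28 in 42Y. One 16Y array of Pecam1 reached the level of 42WKK, so that these groups overlapped.

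The stabilins, large scavenger receptors that clear modified proteins and hyaluronan, had the narrowest ranges. Stab2 had 7.87 and 7.55 in group 1, 7.87 and 7.83 in 16Y, 7.88 and 8.32 in 6K, 8.12 and 8.32 in 6Y, 7.82 and 7.78 in 42WKK, and 7.91 and 7.59 in 42Y. Stab1 had 6.92 and 6.66 in group 1, 6.94 and 7.14 in 16Y, 7.13 and 7.53 in 6K, 7.30 and 7.59 in 6Y, 7.02 and 6.71 in 42WKK, and 7.28 and 7.20 in 42Y. For both genes several groups overlapped, and only 6Y and, in part, 6K stood above the rest. Over the 10 genes, 28 of 50 neighbouring groups in the order of means had overlapping arrays. The same count over all clusters was not made, so it cannot be said whether this is many or few.

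The 10 genes varied together. Over the 12 arrays the 45 gene pairs had Pearson correlations from 0.60 to 0.97, with a median of 0.86. These points share their arrays, so the values describe this set and carry no test. The mean deviation of the 10 genes from their own averages ran from -0.67 in group 1 replicate 5 to 0.70 in 6Y replicate 2. The 4 arrays of 1 and 16Y also differed from the other 8 over the whole array. Their medians were 4.84 to 4.88 and their standard deviations over clusters 2.35 to 2.37, against 4.74 to 4.81 and 2.39 to 2.42. The part of this array-wide difference in the marker levels was not tested.

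The groups 16Y and 6Y carry the same title letter, are both listed as diabetic in the series text, and differ in their title number. In this comparison all 10 markers had lower means in 16Y, with a median difference of -0.78 on the log2 scale against 0.038 over all clusters. In all 10 the arrays of 16Y lay below those of 6Y, as they did for 21.6% of all clusters. At a Benjamini-Hochberg adjusted p under 0.05 in limma, 4 of 10 fell, while 1.78% of clusters were called in either direction and 1.2% were called lower. The log2 differences were -0.98 for Kdr (SE 0.17, adjusted p = 0.034), -1.20 for Clec4g (SE 0.22, adjusted p = 0.041), -0.92 for Cdh5 (SE 0.17, adjusted p = 0.041) and -1.36 for Lyve1 (SE 0.27, adjusted p = 0.049). The 4 that fell were a growth factor receptor, a junction protein and 2 sinusoidal receptors. The others were Eng at -0.82 (adjusted p = 0.062), Fcgr2b at -0.73 (adjusted p = 0.087), Tek at -0.69 (adjusted p = 0.091), Pecam1 at -0.68 (adjusted p = 0.1), Stab1 at -0.41 (adjusted p = 0.29) and Stab2 at -0.37 (adjusted p = 0.32).

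These calls depended on which arrays were in the fit. With any one array of 6K, 6Y, 16Y or 42WKK left out, 0 of 10 markers were called, and 1, Kdr, without either array of group 1. The 4 calls remained in number when either 42Y array was left out. A fit on the 4 compared arrays alone called 0. The direction was lower for every marker under every alternative that gave it a value. This is no further test, because the arrays of 16Y and 6Y did not overlap for any marker. No left-out array could therefore turn a sign, and most other alternatives left the difference itself unchanged. Of all clusters called in this comparison 32.6% were higher in 16Y, and 17.7% after each array was centred on its median, a setting that called 5 of the markers. With quantile normalization 35.8% were higher.

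**Figure D2:**
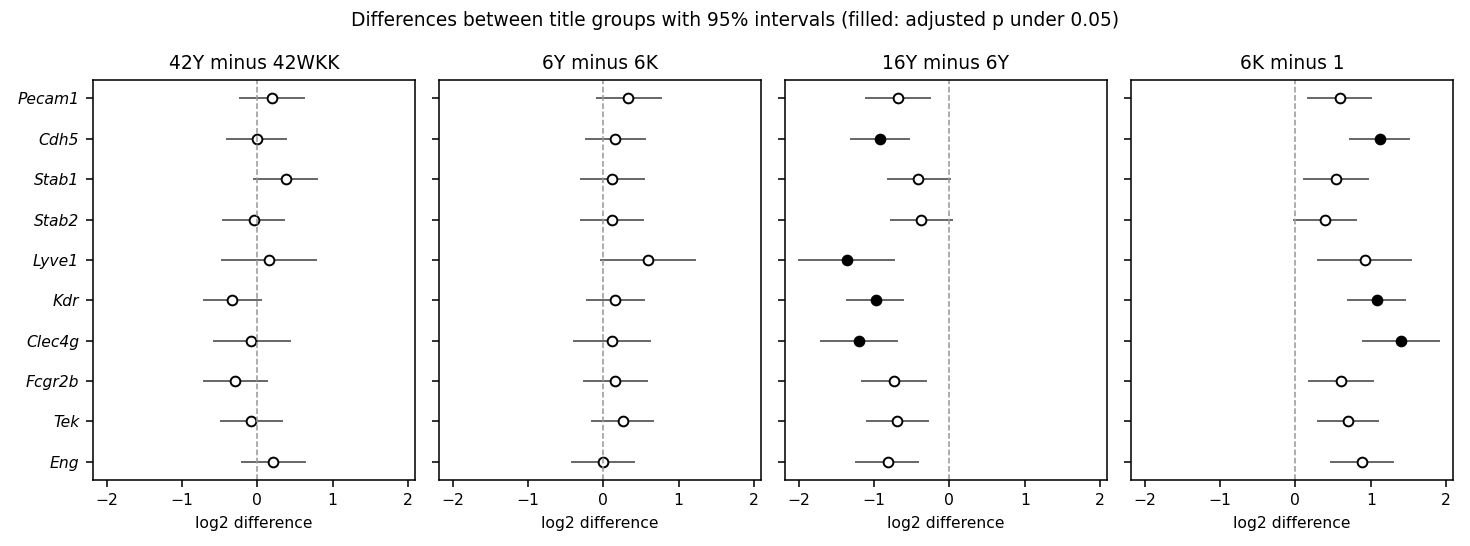
Log2 difference (horizontal axes, limma estimate as a point with its 95% interval as a line) of each marker in 4 comparisons, filled where the adjusted p was under 0.05. All 10 genes lie below 0 for 16Y minus 6Y and above 0 for 6K minus 1, whereas in 42Y minus 42WKK and 6Y minus 6K every interval includes 0.

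The comparison of KK-Ay with KK mice at 42 weeks addresses the strain difference at the age the study names. None of the 10 markers passed the test (limma), while 1.85% of clusters did. At an unadjusted p under 0.05 there were 0 markers and 17.3% of clusters. Stab1 was at 0.38 (SE 0.18, 95% interval -0.04 to 0.79), Kdr at -0.33 (SE 0.17, interval -0.71 to 0.05) and Fcgr2b at -0.29 (SE 0.18, interval -0.71 to 0.13). The signs were mixed, with 4 genes higher and 6 lower in 42Y and a median of -0.03. The intervals of the 10 genes together reached from -0.71 to 0.79. The arrays of 42Y and 42WKK overlapped for 5 genes, and the other 5 were split into 3 higher and 2 lower in 42Y, as were 25.1% and 22.7% of all clusters. An analysis of variance on the 4 arrays, the test the study's gene list names, gave unadjusted p under 0.05 for Kdr and Fcgr2b and for 10.7% of all clusters, and an adjusted p under 0.05 for 0 of the 10 and for 0 clusters in all.

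The groups 6Y and 6K share a title number. None of the markers passed the test here (limma), beside 0.00281% of clusters. At an unadjusted p under 0.05 there were 0 markers and 5.28% of clusters. Lyve1 had the largest difference at 0.59 (SE 0.27, 95% interval -0.03 to 1.21), followed by Pecam1 at 0.33 and Tek at 0.26. Without 6Y replicate 2 these were 0.36, 0.07 and 0.02. Means were higher in 6Y for 9 genes, with a median of 0.16, and 8 of 10 had overlapping arrays. The arrays did not overlap for the other 2 markers and for 35.4% of all clusters. When the 3 groups with Y in the title were set against the other 3, 0 markers were called (limma), with 0.208% of clusters called. At an unadjusted p under 0.05 there were 2 markers and 12.3% of clusters. The largest values were Lyve1 at 0.30 (SE 0.16), Pecam1 at 0.26 (SE 0.11) and Stab1 at 0.25 (SE 0.11). This contrast has group 1 on one side and 16Y on the other, the groups in which the markers were lowest.

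The rest of the comparisons between title numbers called none of the 10 by limma. In 42Y minus 16Y, 9 markers had higher means, with a median of 0.42, and 0.399% of clusters were called. An unadjusted p under 0.05 was found for 4 markers and 13.9% of clusters. The largest was Clec4g at 0.70 (SE 0.22, adjusted p = 0.21). Of the clusters called, 51.4% were higher in 42Y, with 70.6% for centred arrays and 52.8% for quantile normalization. In 42Y minus 6Y all 10 means were lower, with a median of -0.43, and 1.83% of clusters were called. An unadjusted p under 0.05 was found for 4 markers and 16.0% of clusters. Lyve1 was at -0.87, Cdh5 at -0.58 and Kdr at -0.55. In 42WKK minus 6K, the groups without Y, 9 means were lower, with a median of -0.31, and 1.01% of clusters were called. An unadjusted p under 0.05 was found for 3 markers and 15.0% of clusters. Eng was at -0.58, Stab1 at -0.46 and Lyve1 at -0.43. The test of whether the Y difference itself changed between the title numbers 6 and 42 called no marker, beside 0.143% of clusters (0 markers and 13.2% of clusters at an unadjusted p under 0.05), with values from -0.49 for Kdr to 0.25. Several of these comparisons share a group, so their values are not independent.

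Group 1 was set against the other groups without Y after its low levels had been seen. In 6K minus 1 all 10 means were higher, with a median of 0.79, and the arrays did not overlap for 10 of 10, against 22.4% of clusters. Limma called 3 markers higher, beside 0.405% of clusters called in all and 0.298% called higher. They were Clec4g at 1.40 (SE 0.22, adjusted p = 0.045), Cdh5 at 1.12 (SE 0.17, adjusted p = 0.045) and Kdr at 1.08 (SE 0.17, adjusted p = 0.045). In 42WKK minus 1 all 10 means were higher too, with a median of 0.57, and the same 3 genes were called, beside 5.71% of clusters in all and 3.67% called higher. Kdr was at 1.01 (adjusted p = 0.018), Clec4g at 1.09 (adjusted p = 0.03) and Cdh5 at 0.71 (adjusted p = 0.049). Both comparisons use the same arrays of group 1, and lost calls when arrays were left out. In the first, 1 marker was called without either 6Y or either 42Y array and 0 without any one of the others. In the second it was 0 without either 42WKK array or group 1 replicate 5, 1 without group 1 replicate 3, and 5 without either 6Y array. Of the clusters called, 73.6% were higher in 6K than in 1, with 90.6% for centred arrays and 65.3% for quantile normalization. For 42WKK over 1 the share was 64.3%, with 88.4% for centred arrays and 60.4% for quantile normalization.

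Other endothelial genes were listed by function beside the 10, with earlier results of these data known. In 16Y minus 6Y, 13 of 15 other sinusoidal genes and 20 of 22 other genes of endothelium in general had lower means, with medians of -0.57 and -0.35. In each list 1 gene fell, beside 1.2% of all clusters called lower. Dnase1l3, a secreted nuclease of the sinusoid, had 8.31 and 8.58 in 6Y and 7.27 and 7.62 in 16Y, a difference with a 95% interval of -1.43 to -0.57 (SE 0.19, limma adjusted p = 0.045). Emcn, a sialomucin of the endothelial surface, had 5.27 and 5.70 in 6Y and 4.74 and 4.42 in 16Y, a difference of -0.91 (SE 0.17, limma adjusted p = 0.043). Both calls were lost with each of the 12 arrays left out in turn. Of 22 ligands and partners of the receptors, 12 were lower and 0 were called, with a median of -0.04. In 42WKK minus 1, 11 of 15 other sinusoidal genes were higher, with a median of 0.64 and 4 called, beside 5.71% of clusters. The other genes of endothelium in general were split there, with 10 of 22 higher and 12 lower, a median of -0.03 and 1 called. In 6K minus 1 these lists had 13 of 15 and 18 of 22 higher, with medians of 0.57 and 0.26 and 0 called.

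In the same comparison the medians of other cell lists were smaller in size than the -0.78 of the 10 markers, and some were positive. Hepatocyte genes had mean deviations of -0.09 to -0.04 in 16Y against 0.07 in both 6Y arrays, with 7 of 9 lower and 0 called. Stellate cell genes lay at -0.19 to -0.12 against 0.01 to 0.29, with 10 of 10 lower, a median of -0.23 and 0 called. Kupffer cell genes lay at 0.02 to 0.12 against 0.06 to 0.62, with 9 of 10 lower, a median of -0.35 and 0 called. Their median was as low as that of the other genes of endothelium in general. The Kupffer list was high in the same array, 6Y replicate 2, as the endothelial markers. Its part in the 16Y and 6Y difference was not tested. Means were lower in 16Y for 4 of 5 cholangiocyte genes (median -0.09) and 4 of 5 lymphatic endothelial genes (median -0.40), a list that holds Lyve1 too. They were higher for 4 of 5 B cell, 4 of 5 T cell, 4 of 6 neutrophil, 3 of 5 platelet and 1 of 3 erythroid genes, and Lyve1 was the 1 gene called in these lists. In group 1 the Kupffer list was low at -0.51 to -0.23, beside -0.51 to -0.28 for the other sinusoidal genes.

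**Figure D3:**
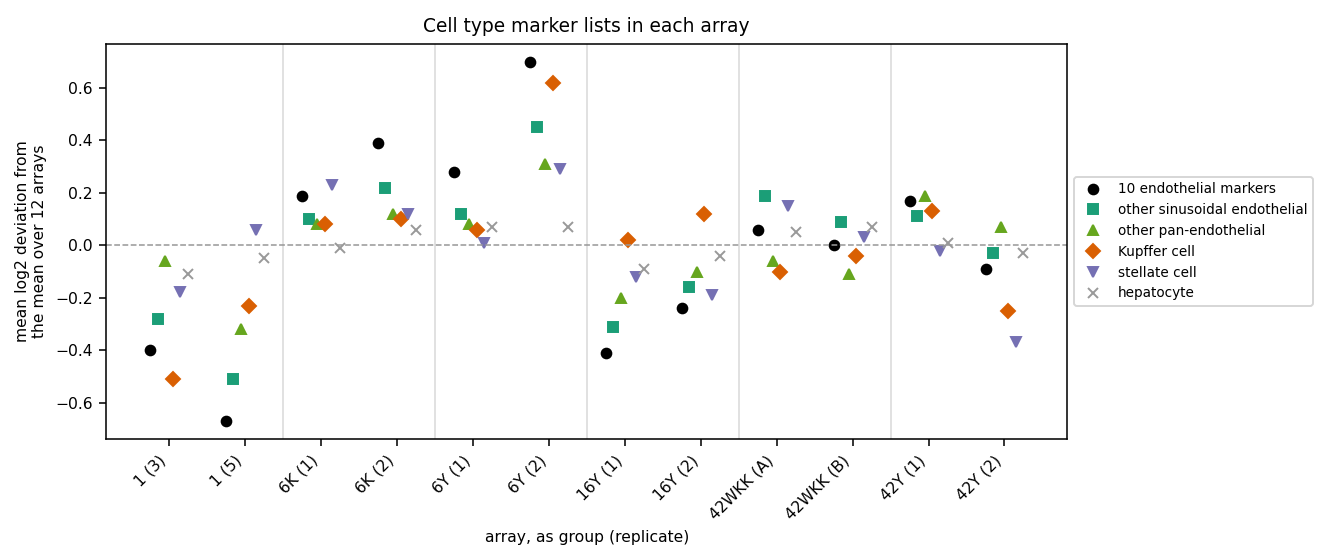
Mean log2 deviation (vertical axis) of each marker list from its mean over the 12 arrays, by array (horizontal axis, group and replicate). The 10 endothelial markers run from -0.67 to 0.70, Kupffer cell genes run from -0.51 to 0.62, and hepatocyte genes stay between -0.11 and 0.07.

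In 6Y minus 6K, 10 of 15 other sinusoidal genes, 16 of 22 genes of endothelium in general and 10 of 22 ligands and partners had higher means, with 0 called by limma. The largest values of each list were Bmp2 at 0.47, Emcn at 0.43 (unadjusted p = 0.032) and Smad7, an inhibitor of TGF-beta signalling, at -0.46 (unadjusted p = 0.015). At 42 weeks, of 15 sinusoidal genes 10 had lower means in 42Y, with a median of -0.10 and 0 called. Of 22 genes of endothelium in general 18 had higher means, with a median of 0.26 and 1 called, beside 1.85% of all clusters. The called gene was Nos3, the endothelial nitric oxide synthase, with 5.09 and 4.95 in 42WKK and 5.63 and 5.88 in 42Y. It rose by 0.74 (SE 0.11, limma adjusted p = 0.022), and the call was lost without either 42WKK array or 42Y replicate 2. A fit on the 4 compared arrays alone did not call Nos3. Among the ligands and partners 15 of 22 had higher means, with a median of 0.08, and Smad1 was called. Smad1 carries signals of bone morphogenetic protein receptors, for which Eng is a co-receptor, to the nucleus.

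Smad1 had log2 signals of 7.38 and 7.42 in 42Y, against 6.15 and 6.18 in 42WKK and 6.31 to 6.61 in the other 8 arrays. Both 42Y arrays stood above all 10 others. It was higher in 42Y than in 42WKK by 1.24 (SE 0.10, limma adjusted p = 0.0023), than in 16Y by 1.09 (adjusted p = 0.012) and than in 6Y by 0.95 (adjusted p = 0.0068). The first call held without any one array. A limma fit on the 4 compared arrays alone lost it (adjusted p = 0.14), as did the analysis of variance on them (adjusted p = 0.36). The call against 16Y was lost without either 16Y array, and that against 6Y without 6Y replicate 1. Eng itself, on the same arrays, was at 0.21 for 42Y minus 42WKK. Neutrophil genes were also high in 42Y, with mean signals of 4.40 to 4.65 against 3.51 to 4.12 in the other arrays and 1 of 6 called, Retnlg, and their part in the 42Y values was not tested.

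Nrp2, a co-receptor for vascular endothelial growth factors, was opposite to the 10 markers in part. It was lowest in 6Y and 6K and high in group 1. In 42Y minus 16Y it was higher by 0.16, the direction of 9 markers. It had 7.34 and 7.40 in group 1, 7.01 and 6.85 in 16Y, 6.65 and 6.75 in 6K, 6.50 and 6.49 in 6Y, 7.43 and 7.32 in 42WKK, and 6.97 and 7.21 in 42Y. Its highest means were in 42WKK and 1 and its lowest in 6Y. It rose from 6Y to 42Y by 0.59 (SE 0.12, limma adjusted p = 0.045) and from 6K to 42WKK by 0.68 (SE 0.12, adjusted p = 0.04). The first call was lost without any one array other than 42Y replicate 1, and the second without any one array other than those of 42Y.

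**Figure D4:**
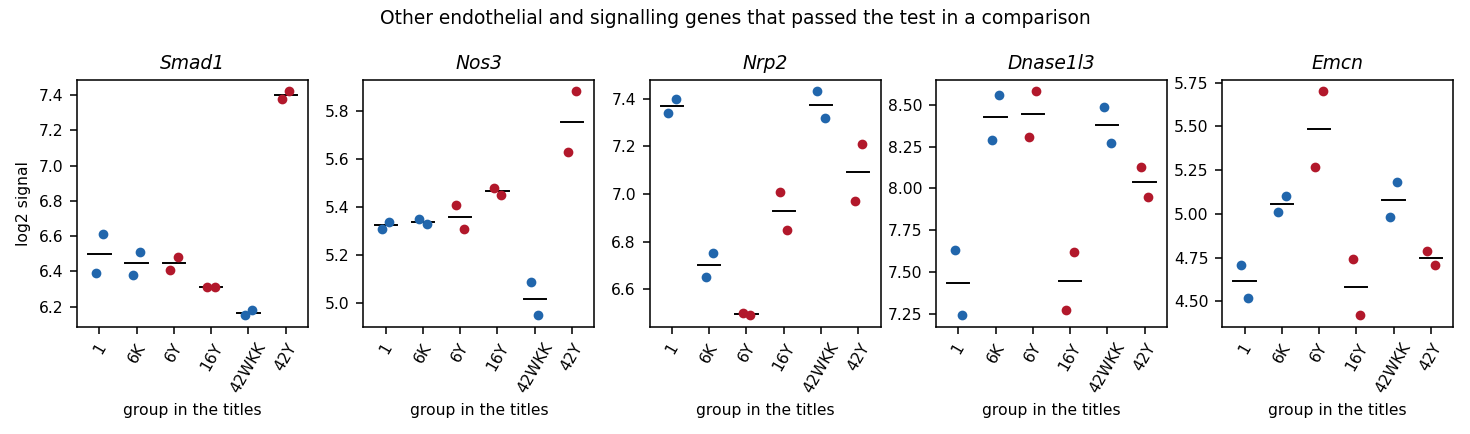
Log2 signal (vertical axes, each with its own range) of 5 other endothelial or signalling genes in each array (points) of the 6 title groups (horizontal axes), with group means as bars. Smad1 stands apart in 42Y at 7.38 and 7.42, and Nrp2 is lowest in 6Y, where Dnase1l3 and Emcn are high.

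The genes whose pattern over the 12 arrays was most like the mean profile of the 10 markers were ranked by Pearson correlation over 7597 genes with a mean log2 signal of at least 6. They were Gatm (0.968), Lztr1 (0.961), Eftud2 (0.950), Ints14 (0.948), Plpp1 (0.945), Wdr1 (0.943), Qars (0.939), Igfbp7 (0.937), Pnpt1 (0.935) and Gnb1 (0.932). All 10 were lowest in group 1 replicate 5, and 9 were highest in 6Y replicate 2, the exception being Eftud2. These are also the extremes of the mean profile, so the ranking itself favours genes that have them. The genes share these arrays, so the values describe likeness only.

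The bases before a listed start of the genes were compared because the markers varied together. A listed start can lie inside the annotated span of its gene. The window of Kdr lay wholly inside that span, and those of Tek, Stab1, Stab2 and Clec4g in part, so the counts below include bases within genes. In the RefSeq promoter table of GRCm38.p6, 7 of 10 markers had an entry, the others being Pecam1, Cdh5 and Lyve1. In the 250 bases before the table's start, the markers held from 2 CpG (Tek) to 16 CpG (Kdr), with a median of 4 against 6 over all 32851 windows. The motif AGGAAG, a core of sites for ETS factors, or its reverse complement CTTCCT was present in 4 of 7 windows, those of Clec4g, Eng, Stab1 and Stab2, against 29.5% of all windows. Overlapping matches were counted. AGATAA, a core of sites for GATA factors, or TTATCT was present in 0 of 7, against 9.99% of all windows.

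The windows of the pair of markers with more than 1 match are shown as examples, 5′ to 3′ on the gene's strand and outside the annotated span of the gene. Clec4g lies on the minus strand at chr8:3720696-3720901 and Eng on the plus strand at chr2:32646345-32646594. Capitals mark AGGAAG or CTTCCT, which are matches of letters and not measured sites. In Clec4g 2 of the 3 matches overlap each other.
Clec4g: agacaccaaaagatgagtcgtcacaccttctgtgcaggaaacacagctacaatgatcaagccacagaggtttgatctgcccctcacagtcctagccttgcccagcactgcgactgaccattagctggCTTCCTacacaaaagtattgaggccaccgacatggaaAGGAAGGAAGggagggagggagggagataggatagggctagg
Eng: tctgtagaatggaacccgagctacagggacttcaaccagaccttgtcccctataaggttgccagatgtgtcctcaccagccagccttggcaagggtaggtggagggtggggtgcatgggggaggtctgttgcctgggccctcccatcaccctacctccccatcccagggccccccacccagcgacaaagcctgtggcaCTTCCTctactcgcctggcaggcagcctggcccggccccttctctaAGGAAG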

How the data were processed

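Per the labels and the methods, the authors made log2 signals per transcript cluster by robust multichip analysis in Affymetrix Expression Console (version 4.0 in the methods). The methods name a mouse exon array, whereas the cluster identifiers belong to the mouse gene array. The genome build behind the clusters was not given in the sources used here. RMA is quantile-normalized between arrays, which can hide a shift shared by most genes, and arrays give no read depth, so that their number limits the precision.

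The deposited log2 values were used as they are. Of 35556 clusters 21789 carried 1 symbol in the platform annotation, 1621 several and 12146 none, and 21698 of the first kind matched a RefSeq identifier. The 6 title groups were fitted together with limma 3.58.1 in R 4.3.3 (lmFit, eBayes without trend), with p adjusted over all clusters and a threshold of 0.05. The fit was tested on simulated data. The markers, the 14 lists and the alternatives were chosen with earlier results of these data known. Named genes outside the markers were those called in their list, the largest of a list with 0 called, and the 10 most alike. Calls of list genes in 6K minus 1 and 42WKK minus 1 were not used for this, and some called list genes are not named. The comparisons 6K minus 1 and 42WKK minus 1, and the fit without a block on the 8 numbered arrays, were added after seeing the data.

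Alternatives were quantile normalization, centring of arrays on their median, a mean log2 value of at least 6, a variance trend, clusters with 1 symbol, only the arrays compared, no 6K arrays, the other Clec4g cluster, each array left out, title numbers as a block, and an analysis of variance at 42 weeks.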

Additional observations from a re-analysis of the deposited data

Results flagged for a closer look

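Smad1 differed between the title numbers in its Y difference. The difference of 42Y minus 42WKK less that of 6Y minus 6K was 1.24 on the log2 scale (SE 0.15, limma adjusted p = 0.029), with 42Y at 7.38 and 7.42, 42WKK at 6.15 and 6.18, 6Y at 6.41 and 6.48, and 6K at 6.38 and 6.51. It was the 1 result picked out, because the test of the difference itself passed. The call was kept in 8 alternatives and lost in 10, with values from 1.17 to 1.30. Left-out arrays that ended it were those of 6K, 6Y, 16Y and 42WKK and 42Y replicate 1.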

How the results depend on the processing

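Counts of called clusters depended on the setting, and the cause was not tested. A mean log2 of at least 6 gave 1721 clusters for 42Y minus 42WKK (659 as reported), 2 for 6Y minus 6K (1), 548 for the Y groups against the others (74), 2011 for 16Y minus 6Y (634), 807 for 42Y minus 16Y (142), 1329 for 42Y minus 6Y (652), 1456 for 42WKK minus 6K (360), 622 for the difference of Y differences (51), 1752 for 6K minus 1 (144) and 3753 for 42WKK minus 1 (2031). Clusters with 1 symbol gave 1000, 2, 293, 1179, 438, 1208, 648 and 208 for the first 8 in that order and 730 for 6K minus 1. A variance trend gave 1113, 212, 1349, 355, 845, 202 and 796 for 42Y minus 42WKK, Y against others, 16Y minus 6Y, 42Y minus 16Y, 42WKK minus 6K, the difference of differences and 6K minus 1. Centred arrays gave 966, 661 and 3108 for 16Y minus 6Y, 6K minus 1 and 42WKK minus 1, and quantile normalization gave 0 for 6Y minus 6K. Only the arrays compared gave 2 for 42Y minus 6Y, 10 for the difference of differences and 0 for each other pair of groups, as did the analysis of variance at 42 weeks. Without 6K arrays the counts were 360 for 42Y minus 42WKK, 46 for Y against others, 194 for 16Y minus 6Y and 1269 for 42WKK minus 1.

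With each array left out, the counts ran from 52 to 500 for 42Y minus 42WKK, 0 to 1 for 6Y minus 6K, 6 to 89 for Y against others, 8 to 659 for 16Y minus 6Y, 1 to 283 for 42Y minus 16Y, 104 to 489 for 42Y minus 6Y, 37 to 315 for 42WKK minus 6K, 3 to 110 for the difference of differences, 6 to 118 for 6K minus 1 and 18 to 2262 for 42WKK minus 1. The markers called ran from 0 to 4, 0 to 1 and 0 to 5 in 16Y minus 6Y, 6K minus 1 and 42WKK minus 1.

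Markers called in 16Y minus 6Y (4) were 7 with a mean of at least 6, 8 with 1-symbol clusters, and 0 with only the arrays compared, without 6K arrays, and with or without the replicate block on 8 arrays. In 42Y minus 6Y (0) they were 2, Kdr and Cdh5, with a mean of at least 6. In 6K minus 1 (3) they were 1, 7, 5 and 0 with quantile normalization, a mean of at least 6, 1-symbol clusters and only the arrays compared. In 42WKK minus 1 (3) they were 5, 5 and 0 with centred arrays, 1-symbol clusters and only the arrays compared. The dim Clec4g cluster turned the sign, at -0.06 for 42Y minus 16Y, -0.04 for 6K minus 1 and -0.15 for 42WKK minus 1.

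Title numbers as a replicate block over the 8 numbered arrays gave 0 clusters for 6Y minus 6K, 16 for 16Y minus 6Y, 1 for 42Y minus 16Y and 62 for 42Y minus 6Y. Without the block the same 8 arrays gave 0, 19, 7 and 170. Deviations of same-numbered arrays correlated at -0.04 to 0.05, so the numbers were not taken to pair the samples.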
